A study of Mus musculus with 2 samples.

Results

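The wild-type hippocampus was read in the red dye, Cy5, on both arrays of the study, so each probe has 2 wild-type readings. Its probes were taken as measured when they were brighter than the blank spots of the array by more than 2 SD in the Cy5 channel of both arrays, a rule that 19519 of the 23473 probes (83.2%) met. They name 14144 of the 16390 genes of the array (86.3%). The highest probes left out and the lowest kept lay at 2.460 and 2.464 above the blank mean on the first array and at 1.825 and 1.852 on the second. Of the other probes, 1581 passed only on the first array, 99 only on the second and 2273 on neither, and 1 was marked bad by the scanner software.

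Each channel held RNA pooled from 5 mice. The first array carried wild type against mice with the AtrxdE2 allele of Atrx, the X-linked gene of a chromatin remodeller, and is called the AtrxdE2 array here. The second carried wild type against AtrxdE2 mice that had received TMPyP4, a porphyrin ligand of G-quadruplex DNA, and is called the AtrxdE2+TMPyP4 array. TMPyP4 was given into the peritoneum at 30 mg/kg in 2 doses a week from postnatal day 30 to day 90. No treatment is given for the wild-type mice, nor whether 1 wild-type pool served both arrays or each array had its own. The mutant pools were in the green dye, Cy3, on both arrays and no dye was swapped, so a property of the dye cannot be told apart from a property of wild type within an array. With 1 channel per array there is no residual spread and no p-value is given. A difference between the wild-type channels may come from the mice, the labelling or the array, which cannot be told apart here.

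The hippocampus forms and retrieves memories of places and events. Its excitatory neurons lie in the dentate gyrus (granule cells) and in the fields CA3, CA2 and CA1 (pyramidal cells), and signal through glutamate, while scattered GABA interneurons inhibit them. Astrocytes, myelinating oligodendrocytes and their precursors, microglia and vessel cells fill the tissue, and the choroid plexus, which secretes cerebrospinal fluid, lies in the ventricle beside it and can be carried along in dissection. In bulk RNA fewer cells of a type and less RNA per cell cannot be told apart.

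The median wild-type signal above the blank mean over all probes was 42.2 on the first array and 36.0 on the second, and the brightest probe reached 48527 and 47479. The number of arrays limits the precision. Control spots showed how far the threshold reached into empty signal: 177 of the 1102 spots that carry no probe (16.1%) passed it in both Cy5 channels, against 26 of 2736 blank spots (0.950%), and none of either passed a level of 10 SD in both. That stricter level was met by 15901 probes (67.7%) and 11864 genes (72.4%), so the measured probes below it overlap with the level of spots without a probe. The targeted gene Atrx read 47.4 and 54.6 in wild type and 19.1 and 71.5 in the mutant channels, and its log2 ratio of mutant over wild type, centred on the median of the array, was -1.96 on the first array and -0.78 on the second. The position of this probe against the altered part of the gene was not analysed here.

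Genes were ranked by signal within each wild-type channel, from 0 for the dimmest to 100 for the brightest measured probe. The brightness of a spot depends on how its probe binds and labels as well as on the RNA, so these percentiles describe spots and do not order transcripts by abundance. The 20 brightest named genes were led by Ppia, the prolyl isomerase cyclophilin A, with a signal above blank of 35088 and 31917, where here and below the AtrxdE2 array comes first. Fth1, the heavy chain of the iron store ferritin, read 31240 and 30176. Eef1a1, which brings aminoacyl-tRNA to the ribosome, read 25157 and 24902. Being chosen by the mean rank over both channels, these genes had to stand near the top of each.

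Neuronal genes were among the brightest too. Cpe, the carboxypeptidase that trims neuropeptides, read 27354 and 16866 and Ckb, the brain creatine kinase, 19645 and 11545. The difference of Cpe was -0.50 with the median of its block of spots subtracted, while that of Ckb, in block 24, went from -0.505 to 0.027. Stmn1, which destabilises microtubules, read 23416 and 17252, Uchl1, a neuronal ubiquitin hydrolase, 20837 and 14750, and Camk2n1, an inhibitor of the calcium/calmodulin-dependent kinase CaMKII, 17970 and 15259. The other genes of the 20 were Tmsb4x, Hsp90aa1, Prnp, Cox6a1, Rpl41, Atp5b, Atp1b1, Ywhah, Cst3, Rab31, Hspa8 and Slc25a4. In each of the 20 the log2 difference after normalization lay between -0.51 (Cpe) and 0.50 (Slc25a4). The SD among the 500 probes nearest in signal was 0.37. The choice by mean rank over both channels limits how wide these differences can be. Both probes of Hspa8 were bright, at 8408 and 26240 on the AtrxdE2 array, which shows how far probes of 1 gene can differ in brightness.

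**Figure D1:**
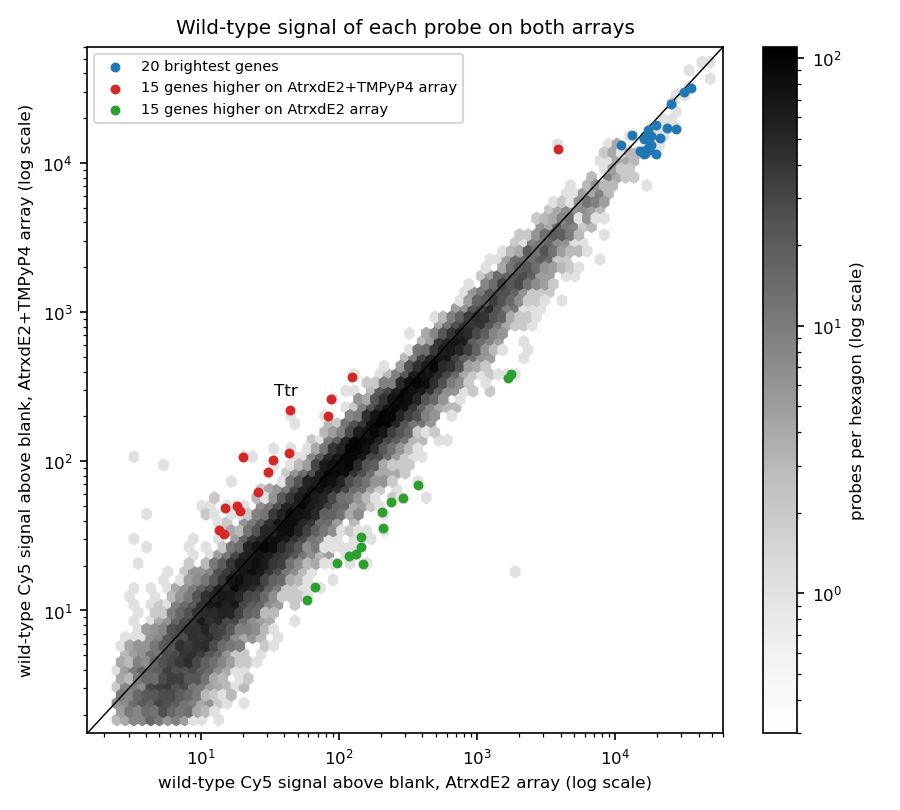
Wild-type Cy5 signal above blank of 19519 probes on the AtrxdE2 array (x axis) and the AtrxdE2+TMPyP4 array (y axis), both on log scales. Grey hexagons hold probes, coloured points are the named genes and the line marks equal signal. The blue points, the 20 brightest genes by mean rank over both channels, sit at the upper end near the line. The red and green points are the genes with the widest differences among those above 10 SD in both channels.

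Genes of protein synthesis and energy supply filled the upper end of the ranking. Of 33 genes of oxidative phosphorylation, all measured, 30 were in the top 10% of both channels, where 8.82% of all measured genes were found. Their median percentile was 98.1, against 53.2 for all measured genes. Atp5b, the beta subunit of ATP synthase, was the highest with 17394 and 12286, and Atp5g1, a subunit of its membrane ring, the lowest with 386 and 377. The range was thus narrow in rank, from percentile 81.1 upward.

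Of 24 genes of cytosolic ribosomal proteins, all measured, 17 were in the top 10% of both channels and the median percentile was 98.9. Rps14 read 9740 and 7497. Rpl10, in contrast, read 6.19 and 2.61, close to the threshold, and Rpl37 read 26.3 and 9.05. All of these proteins are parts of the same particle, so the spread of percentiles from 3.62 to 99.6 within the list is a spread between probes of genes with linked products. Of 11 genes of heat shock proteins and related chaperones, 7 were in the top 10%, and the lowest, Hspb1, a small heat shock protein, was at percentile 79.9.

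The machinery of the synapse was similarly bright. Of 13 synaptic vesicle genes 10 were in the top 10%, with a median percentile of 96.7. Syt1, the calcium sensor of release, read 9729 and 7306. Snap25, a SNARE protein of the plasma membrane, read 7748 and 7084. The lowest was Syngr1, a vesicle membrane protein, at 107 and 52.8.

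Of 10 genes of CaMKII, calmodulin and their partners, 8 were in the top 10%. Calm2, which encodes calmodulin, had 3 probes with a mean of 13522 and 12763, and Camk4, a nuclear kinase of the family, was the dimmest at 30.4 and 40.01. The 14 glutamate receptor and scaffold genes ranged more widely, with a median percentile of 67.1. Gria1, an AMPA receptor subunit, read 3047 and 2993, while Grm5, a metabotropic receptor, read 31.5 and 30.7. The 2 probes of Dlgap1, a postsynaptic scaffold, read 2246 and 35.1 on the AtrxdE2 array.

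Markers of excitatory neurons had a median percentile of 92.2 in 12 of 12 genes measured. Nrgn, the calmodulin-binding protein neurogranin of dendritic spines, led with 5831 and 2015, and Camk2a, the main kinase subunit of forebrain neurons, read 2848 and 1117. Neurod6 and Neurod2, transcription factors of these neurons, read 708 and 649, and 632 and 431. Both kinase-related markers were brighter on the AtrxdE2 array.

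The markers of single hippocampal fields were dimmer. All 8 CA1 genes were measured, with a median percentile of 64.0: Ccn3, a secreted matrix protein, read 2033 and 1167 and Wfs1, a membrane protein of the endoplasmic reticulum, 241 and 183, while Fibcd1 read 6.501 and 3.74. Of 10 CA3 and CA2 genes 7 were measured, from Socs2, an inhibitor of cytokine signalling, at 431 and 372 to Prss35 at 23.4 and 33.1. Rgs14, a CA2 marker that limits plasticity there, read 84.5 and 77.5. Iyd, Cpne4 and Cdh24 did not pass on the AtrxdE2+TMPyP4 array.

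Of 12 dentate granule genes 11 were measured, but their median percentile was 27.5. Calb1, a calcium buffer, read 1315 and 1149 and Bdnf, a neurotrophin, 584 and 383. Prox1, the transcription factor that sets granule cell identity, read 23.5 and 12.2, and Dsp, a desmosome protein that marks these cells, 3.35 and 4.25. Prox1 and Dsp were therefore among the dim probes, and Calb1 and Bdnf, which other neurons express too, among the bright ones. Trpc6 (108 and 83.5) and Stxbp6 (55.3 and 126) lay between, at percentiles 56.0 and 53.8, against a median of 53.2 for all measured genes.

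GABA interneuron markers were measured in 13 of 13 genes, with a median percentile of 79.1. The neuropeptides were the brightest: Cck, which pyramidal cells also make, read 9784 and 9663, Sst 5375 and 2442, Npy 1246 and 1139 and Vip 836 and 714. Gad2, which makes GABA, read 522 and 598. Pvalb, the calcium buffer of fast-spiking cells, read 169 and 92.7. Nos1, the neuronal nitric oxide synthase, was the dimmest at 24.4 and 12.7.

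Glial lists were bright too. All 15 astrocyte genes were measured, with a median percentile of 87.1, from Aldoc, a glycolytic enzyme, at 9244 and 9382 to Gfap, the intermediate filament of astrocytes, at 29.2 and 11.7. Slc1a3, a glutamate transporter, read 1703 and 1858, while Slc1a2, the main glutamate transporter of forebrain astrocytes, read 68.3 and 53.8. Gfap and Slc1a2 are known as abundant transcripts of astrocytes, and their probes on this array were dim. All 13 oligodendrocyte genes were measured, with a median percentile of 89.1. Mbp, a myelin protein, read 3253 and 4448 and Gjb1, a gap junction protein, 89.8 and 44.9. The 10 precursor genes had a median percentile of 60.3, from Olig1, a lineage transcription factor, at 954 and 591 to Gpr17 at 9.35 and 7.83.

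Microglial genes were measured in 13 of 13, with a median percentile of 74.0. C1qa, a chain of complement C1q, read 1091 and 718, Cx3cr1, the fractalkine receptor, 366 and 290, and Itgam, an integrin, 19.5 and 28.4. Of 13 endothelial genes 12 were measured. Cldn5, the tight junction protein of the blood-brain barrier, read 1044 and 780, and Vwf, a clotting factor carrier, 12.5 and 9.56. Pericyte and smooth muscle genes had a median percentile of 48.9 in 10 of 10.

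**Figure D2:**
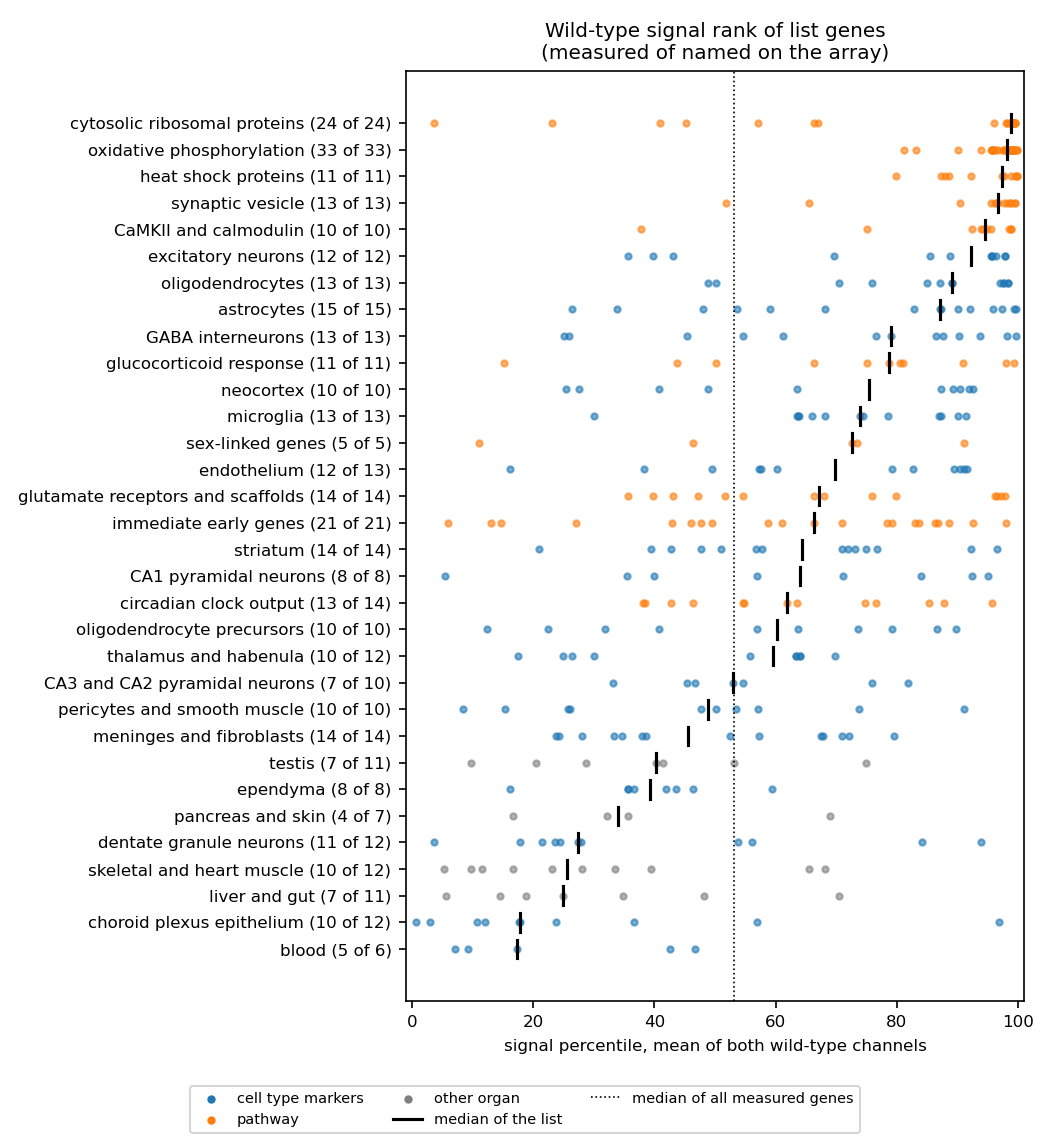
Signal percentile (mean of both wild-type channels, x axis) of each measured gene of 32 lists, sorted by the list median. Points are genes, black ticks list medians and the dotted line the median of all measured genes, 53.2. Ribosomal and oxidative phosphorylation genes sit at the right, and choroid plexus and blood genes at the left, with medians of 17.7 and 17.4.

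Genes that mark tissue beside the hippocampus were read as well, and since percentiles describe spots they do not measure how much of that tissue was present. Choroid plexus genes were the second dimmest list, with a median percentile of 17.7 in 10 of 12 genes measured. Enpp2, a lysophospholipase that other brain cells also make, read 2539 and 2051, but Folr1, a folate receptor that defines the epithelium, read 3.58 and 1.98. Cldn2, its tight junction protein, passed on neither array, and F5 passed on the AtrxdE2 array only, at 8.78. Ependymal genes had a median percentile of 39.3 and genes of meninges and fibroblasts 45.5. Of 6 blood genes 5 were measured, from Alas2, the haem synthesis enzyme of red cells, at 58.1 and 54.0 downward. The haemoglobin genes were not analysed here.

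The lists of genes used to mark other brain regions had medians above the 53.2 of all measured genes. Genes of these lists need not be silent in the hippocampus itself, so the medians do not measure tissue of other regions. Of the striatal list all 14 were measured, with a median percentile of 64.3. Ppp1r1b, the dopamine-regulated phosphatase inhibitor DARPP-32, read 3448 and 1445 and Penk, the enkephalin precursor, 1484 and 689. Drd1 and Drd2, the dopamine receptors, read 52.2 and 98.9, and 47.1 and 43.3. The neocortical list had a median percentile of 75.5 in 10 of 10, led by Lamp5 at 1025 and 1050, which hippocampal interneurons also express. Of the thalamic list 10 of 12 were measured, but Tcf7l2, a transcription factor of thalamic neurons, lay below the blank mean on both arrays. How much of these signals came from tissue beside the hippocampus was not tested.

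Genes with no known role in brain still gave signal. Of 41 genes of liver, gut, muscle, testis, pancreas and skin on the array, 28 passed the threshold and 21 the level of 10 SD, at a median percentile of 30.4. Ddx4, a germ cell helicase, read 364 and 193, Fgb, a fibrinogen chain of the liver, 207 and 200, and Tnnt2, a heart troponin, 192 and 169. Genes of other organs thus passed the threshold too, where 86.3% of all genes of the array did. Alb read 7.85 and 2.88, and Apoa1, Tat, Fabp2, Cpa1, Prm1 and Gcg passed on neither array.

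Immediate early genes, which neurons switch on with activity, were measured in 21 of 21, with a median percentile of 66.3. Egr1 read 3950 and 2598, Nr4a1 1165 and 905, Fos 425 and 441 and Arc 1059.7 and 466. Npas4, which depends strictly on activity, read 12.7 and 5.67. The log2 difference after normalization, described below, was -0.94 for Arc, and for Fos it was 0.28, turning to -1.30 with the local background of each spot subtracted.

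The promoters of bright and dim genes differed in the CG dinucleotide, the site of DNA methylation in mammals. RefSeq promoter sequence (build GRCm38.p6, the 250 bases before the start, CG counted on 1 strand since it reads the same on the other) was matched by symbol for 11340 of the measured genes and for 1787 genes of the array that were not measured. The median number of CG was 14 in the first and 3 in the second. With the measured genes divided into 5 equal groups by CG number, the median signal percentile was 27.0, 52.2, 59.8, 63.2 and 63.3 from fewest to most, and the share in the top 10% of both channels 2.78%, 8.38%, 9.70%, 11.99% and 11.6%. The step was largest between the groups with fewest CG. The median share of G and C bases rose over the same 5 groups, at 47.4%, 53.6%, 58.4%, 63.2% and 70.8%. The number of CG and the content of G and C therefore cannot be told apart here, and DNA methylation was not measured. Across these genes, which are not independent replicates, the CG number and the percentile had Pearson's r = 0.298 and Spearman's rho = 0.325, while CG number and the wild-type difference had r = -0.030. Of all 32851 promoters in the table, 92.1% hold at least 1 CG and 37.8% hold 10 or more. A pair of the brightest genes and a pair that passed on neither array are shown, chosen after their values were seen, with each CG in capitals.
Ppia, chr11:6415617-6415866, plus strand: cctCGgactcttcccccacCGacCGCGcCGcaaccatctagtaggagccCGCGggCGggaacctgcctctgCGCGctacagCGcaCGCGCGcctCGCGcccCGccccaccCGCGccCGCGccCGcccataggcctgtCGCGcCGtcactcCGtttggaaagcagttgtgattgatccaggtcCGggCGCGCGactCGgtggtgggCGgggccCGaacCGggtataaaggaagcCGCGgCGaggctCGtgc
Eef1a1, chr9:78481725-78481974, minus strand: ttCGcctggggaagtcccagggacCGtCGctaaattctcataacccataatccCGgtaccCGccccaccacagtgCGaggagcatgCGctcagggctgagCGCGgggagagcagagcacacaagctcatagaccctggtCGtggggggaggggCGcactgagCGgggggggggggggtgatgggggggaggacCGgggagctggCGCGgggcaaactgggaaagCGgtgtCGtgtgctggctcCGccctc
Apoa1, chr9:46228380-46228629, plus strand: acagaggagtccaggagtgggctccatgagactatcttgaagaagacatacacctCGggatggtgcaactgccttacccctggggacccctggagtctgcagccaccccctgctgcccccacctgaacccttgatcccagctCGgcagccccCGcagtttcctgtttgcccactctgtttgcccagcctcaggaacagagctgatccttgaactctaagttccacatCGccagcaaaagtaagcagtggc
Cpa1, chr6:30638968-30639217, plus strand: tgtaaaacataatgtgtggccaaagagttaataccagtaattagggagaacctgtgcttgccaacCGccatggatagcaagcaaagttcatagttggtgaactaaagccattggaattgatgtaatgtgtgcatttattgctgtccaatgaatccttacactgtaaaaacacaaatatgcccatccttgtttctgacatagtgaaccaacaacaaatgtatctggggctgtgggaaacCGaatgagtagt
The first holds 38 CG and the second 18, while the third, of the liver apolipoprotein gene Apoa1 (wild-type signal 0.058 and -1.18), holds 4 and the last, of the pancreatic gene Cpa1 (0.918 and -0.114), holds 2.

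The wild-type readings of both arrays were then compared. Log2 signals were quantile normalized over the measured probes, and the difference is given as the AtrxdE2+TMPyP4 array minus the AtrxdE2 array. Probes kept their rank: log2 signals correlated with r = 0.979 before and 0.980 after normalization (Spearman's rho = 0.981), 92.3% of probes moved by no more than 10 percentile points and 91 of the 100 brightest were shared. Single probes nevertheless differed, with an SD of 0.511 and a median absolute difference of 0.298 on the log2 scale. Of the probes 1042 (5.34%) differed at least 2-fold, of which 391 were higher on the AtrxdE2+TMPyP4 array and 651 on the AtrxdE2 array. Of the genes 237 (1.68%) were at least 2-fold higher on the AtrxdE2+TMPyP4 array and 436 (3.08%) on the AtrxdE2 array, while 52.0% lay above 0. With median centring in place of quantile normalization the split was 213 against 1112, and with local background subtracted 2383 against 2695. Among probes above 10 SD it was 147 (0.924%) against 375 (2.36%).

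The spread was narrower in brighter probes. In the dimmest 10% of probes the SD was 0.668 and 13.2% were past 2-fold, and in the brightest 10% the SD was 0.386 and 1.54% were past it. In the brightest 10%, 3 probes were higher on the AtrxdE2+TMPyP4 array and 27 on the AtrxdE2 array.

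**Figure D3:**
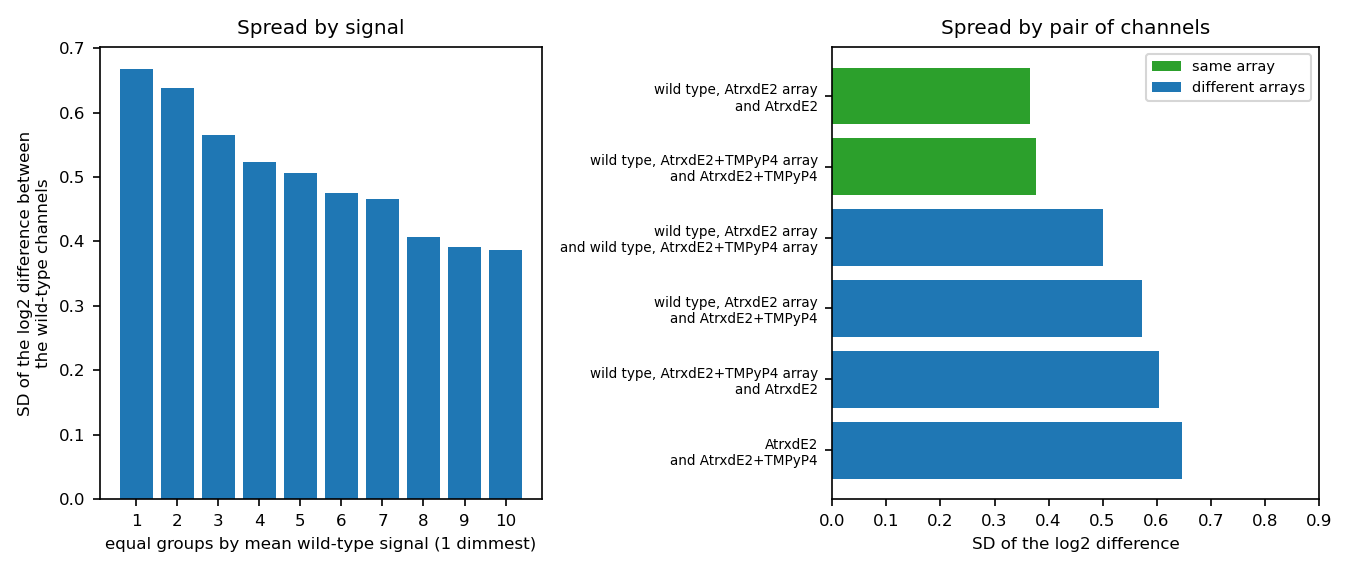
Left, SD of the log2 difference between the wild-type channels in 10 equal groups by mean signal, from 0.668 in the dimmest to 0.386 in the brightest. Right, SD of the log2 difference for each pair of the 4 channels over 18667 probes, with pairs on the same array in green (0.366 and 0.378) and pairs on different arrays in blue (0.501 to 0.648).

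Each wild-type channel lay closer to the mutant channel of its own array than to the other wild-type channel. Over the 18667 probes above blank in all 4 channels, wild type and AtrxdE2 on 1 array differed with an SD of 0.366 and 345 probes past 2-fold (1.85%). Wild type and AtrxdE2+TMPyP4 on the other differed with an SD of 0.378 and 425 probes (2.28%). The wild-type channels, with the same genotype and dye, differed with an SD of 0.501 and 943 probes (5.05%), more than wild type and mutant on a shared array. Pairs that differed in array and genotype had SDs of 0.574 and 0.604, and the Cy3 channels 0.648 with 2091 probes (11.2%).

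The difference between wild-type channels went with the difference between the Cy3 channels of the same spots. Across probes the correlation was r = 0.639 (rho = 0.635), and 0.693 among probes above 10 SD, as a description, since the channels share spots and hybridisation. Of the 943 probes past 2-fold in wild type, 867 (91.9%) had a Cy3 difference of the same sign and 514 (54.5%) were past 2-fold in it the same way, where 74.1% of all probes had the same sign. The Cy3 values are therefore given beside the wild-type values of the genes below.

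Position on the array moved with the difference. In the 24 blocks of spots the median wild-type difference ran from -0.53 (block 24) and -0.40 (block 1) to 0.28 (block 14), and the Cy3 median from -0.27 to 0.16, with 17 blocks of the same sign in both dyes. In block 24, 4 probes were past 2-fold higher on the AtrxdE2+TMPyP4 array and 89 on the AtrxdE2 array, in block 1 it was 0 and 89, and in block 14 it was 54 and 10. With block medians subtracted the SD was 0.470 and the counts 305 (1.56%) and 543 (2.78%). Subtracting block medians cannot remove an effect of position inside a block. The difference of a probe and the median of its adjacent spots had r = 0.399, and 0.199 with block medians subtracted. How much of the spread comes from position was not tested.

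**Figure D4:**
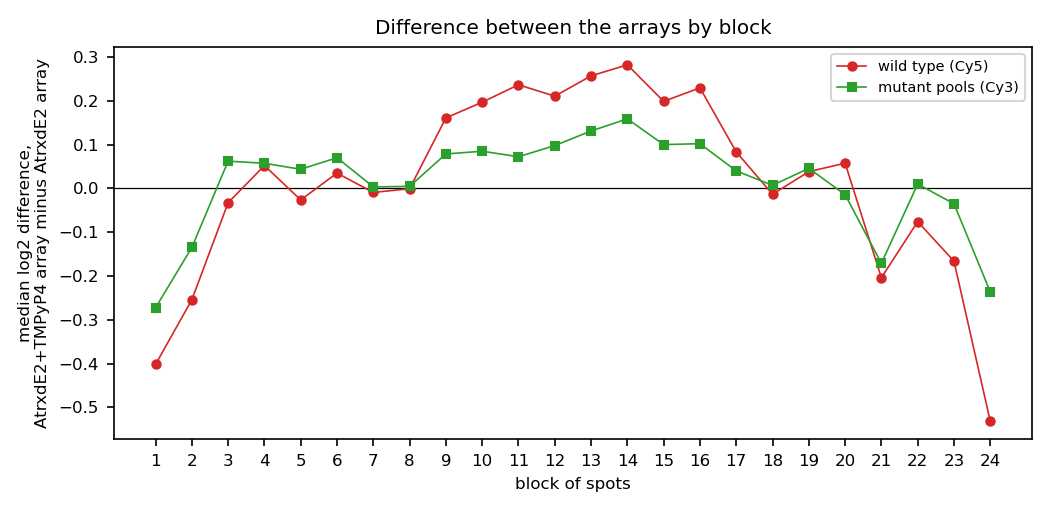
Median log2 difference between the arrays (AtrxdE2+TMPyP4 array minus AtrxdE2 array, y axis) in each of 24 blocks of spots (x axis), for wild type (red circles) and the mutant pools (green squares). Both dyes are lowest in the first and last blocks and highest in block 14, with wild type the wider of the pair in range, -0.53 to 0.28.

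Genes were ranked by difference only where all their measured probes were above 10 SD in both Cy5 channels. Wider differences occurred outside this ranking, such as 3.86 in a measured probe of block 20. Within it the widest positive difference was that of Golga1, a golgin of the trans-Golgi, at 20.1 and 107 (log2 difference 2.68). Ttr, the thyroid hormone carrier transthyretin, followed at 44.3 and 219 (2.52). The spots around them differed: the median of the spots next to Golga1 was 1.29 and of those next to Ttr -0.11. Golga1 lies in a patch of block 20 (rows 1 to 6, columns 40 to 44, chosen after seeing the data), where 27 probes had a median difference of 1.16 in wild type and 1.03 in Cy3, against 0.03 for the other 769 probes of the block. Of the 15 named genes with the widest positive differences in this ranking, 6 lie in the patch: Golga1, Commd9, Dclk2, Myef2, Fer and Smg9. With the median of the surrounding 5 by 5 spots subtracted, Smg9 differed by 0.31 and Dclk2 by 0.88. Golga1 (1.45), Fer (1.35), Myef2 (1.24) and Commd9 (1.15) stayed past 2-fold. The 5 by 5 window of Golga1 lies inside the patch, but those of the other genes reach beyond it. For these genes the values do not measure the height above the patch. Before subtraction Fer differed by 1.54, Myef2 by 1.60, Commd9 by 1.84, Dclk2 by 1.80 and Smg9 by 1.47. The patch median was 1.16, so in each of the 6 only part of the difference stood above it.

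Of the other 9, Slc3a1, a subunit of an amino acid transporter, read 15.02 and 48.5 (1.98), with a median of 0.06 around it. Ap4e1, a subunit of the adaptor complex AP-4, was the only one of the 15 with bright signal, at 3852 and 12372 (1.91), and its Cy3 values were 7202 and 20628. Gtf2h2, of the transcription factor TFIIH, read 125 and 370 (1.78). Lgsn, Dpy19l3, Vmn1r193, Olfr539 and Vmn1r78, of which 3 are vomeronasal or odorant receptors, read 13.5 to 30.7 on the AtrxdE2 array and 32.5 to 84.5 on the other. Gtf2h2, Dpy19l3 and Olfr539 lie in block 14, and the spots next to them had medians of 0.50, 0.71 and 0.67. Next to Ap4e1 the median was 0.39, and next to Lgsn, Vmn1r193 and Vmn1r78 it was -0.15, -0.06 and -0.25. All 15 had a Cy3 difference of the same sign, from 0.92 (Gtf2h2) to 7.08 (Ttr). All 15 also stayed past 2-fold with block medians subtracted, but no other outcome was possible. Their differences were 1.45 or more, and the highest block median was 0.28.

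The 15 genes with the widest negative differences, again among those above 10 SD, were led by Lrrc4b, a synaptic adhesion protein, at 149 and 20.5 (-2.62). Adgrl1, the adhesion receptor latrophilin 1, read 206 and 35.9 (-2.31), and Hcn2, a pacemaker channel, 132 and 24.0 (-2.23). Next were Git1, an Arf GTPase activator of synapses, at 372 and 69.3 (-2.22) and Brsk1, a kinase of neuronal polarity, at 143 and 26.6 (-2.21). The brightest were Dnm1, the dynamin of synaptic vesicle retrieval, at 1758 and 385 (-1.98) and Selenow, a selenoprotein, at 1672 and 361 (-2.00). The others were Mapre3, E2f4, Lfng, Ncstn, Dcbld2, Wbp2, Mpp2 and Cntnap1, at -2.13 to -1.93. The spots around them had medians of only -0.56 to 0.54. All 15 stayed past 2-fold with block medians subtracted, but the lowest block median was -0.53, so no other outcome was possible. All 15 had a Cy3 difference of the same sign, between -2.42 and -1.503. These genes were therefore dimmer on the AtrxdE2+TMPyP4 array in the wild-type and the mutant channel alike. The SD of the nearest 500 probes was 0.41 to 0.55.

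Probes without a gene name here made up 24.6% of those above 10 SD, 40.1% of those past 2-fold higher on the AtrxdE2+TMPyP4 array and 28.8% of those higher on the AtrxdE2 array. The widest difference of all probes above 10 SD was in 1 of them, M400008235, with wild-type signals of 1917 and 19.0 (-6.39) and Cy3 signals of 2847 and 40.4.

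**Figure D5:**
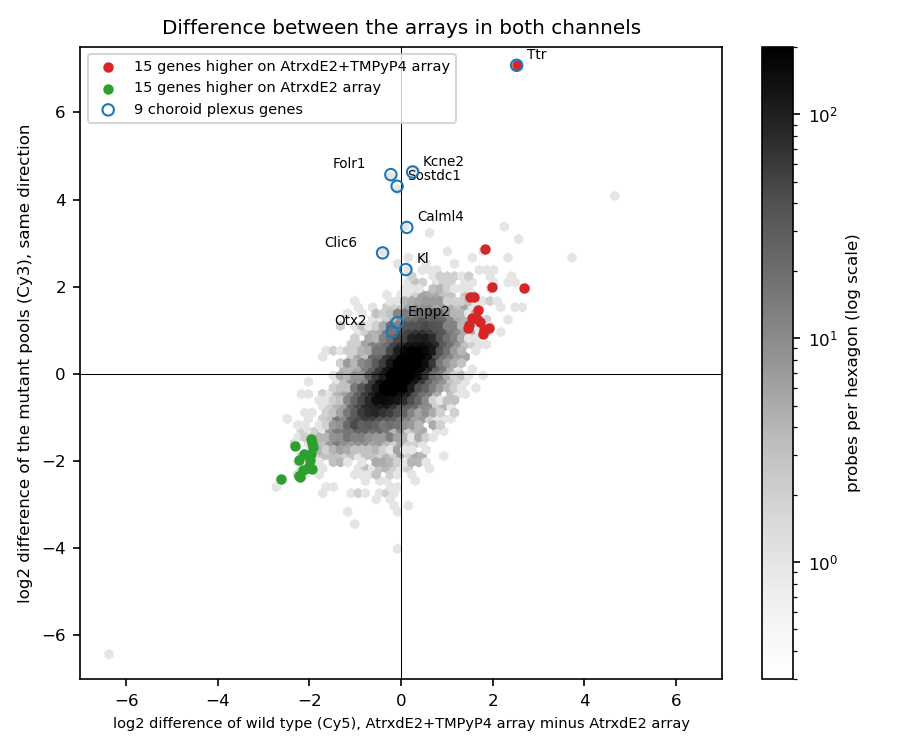
Log2 difference between the arrays (AtrxdE2+TMPyP4 array minus AtrxdE2 array) in wild type (x axis) against the mutant pools (y axis), with probes in grey hexagons, the 15 named genes of each direction in red and green and 9 choroid plexus genes as open circles. The named genes other than Ttr lie along the diagonal, while 8 of the choroid plexus genes lie near 0 in wild type and at 0.98 to 4.63 in the mutant pools. Of these 8, Folr1, Clic6, Kcne2 and Calml4 were not above 10 SD in both wild-type channels.

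Of 9 choroid plexus genes above blank in all 4 channels, 4 had the same sign in wild type and Cy3, and of 4 blood genes 0 did. Among all probes the share was 74.1%. Some of these wild-type differences lay close to 0, such as Kl (0.10) and Enpp2 (-0.09), so their sign says little. The blood genes Ngp (6.15 and 7.68) and S100a9 (12.6 and 10.8) were dim in wild type. S100a9, an alarmin of neutrophils, was at 0.16 in wild type and -3.05 in Cy3. The choroid plexus Cy3 difference had a median of 3.36 over 9 genes, from 0.98 (Otx2) to 7.08 (Ttr), but the wild-type difference of the 9 measured genes other than Ttr lay between -0.40 (Clic6) and 0.25 (Kcne2). Only 5 of the 10 measured genes, Ttr among them, were above 10 SD in both wild-type channels. Folr1, Aqp1, Calml4, Kcne2 and Clic6 were not, so whether wild type differed in them cannot be read here. The summed wild-type signal of the 12 genes on the array was 2706 and 2352, and without Ttr and Enpp2 it was 123 and 81.7. In Cy3 the same sums were 4667 and 74869, and 207 and 1873. Ttr was thus the only gene of the list past 2-fold in wild type, at 0.36% of its Cy3 signal on the AtrxdE2+TMPyP4 array. Whether light of the Cy3 dye reaches the Cy5 reading of so bright a spot was not tested.

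For the lists as groups the wild-type channels were close. No median of the 32 lists passed 0.3 in size, the lowest being -0.27 (synaptic vesicle genes) and the highest 0.25 (pancreas and skin), and 21 of 32 lay below 0, against a median of 0.02 for all measured genes. That limit holds only for this setting: the synaptic vesicle median was -0.402 with block medians subtracted and -1.05 with local background subtracted, and with median centring liver and gut genes lay at -0.400 and CA1 genes at -0.31. With block medians subtracted 10 of the 32 medians changed sign. Of 371 measured list genes 7 were past 2-fold higher on the AtrxdE2+TMPyP4 array and 14 on the AtrxdE2 array, against 1.68% and 3.08% of all genes. Of these, 4 of the 7 and 9 of the 14 stayed past 2-fold with block medians subtracted, and 2 and 8 with the surrounding spots subtracted. Subtracting block medians also brought Kdm5d, Gfap, Shank3 and Etv1 past 2-fold higher on the AtrxdE2 array. In that setting 13 list genes were past it on this side and 4 on the other. The groups of genes are described by these counts and no test was made.

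Synaptic and excitatory genes held 6 of the 14. They were 2 of 13 synaptic vesicle genes, 3 of 12 excitatory genes and 1 of 14 glutamate receptor and scaffold genes. Among all 14144 measured genes 436 (3.08%) were past 2-fold this way and 6779 lay below 0. These are counts of few genes and no test was made. Syn1, a synapsin that tethers vesicles, read 301 and 84.2 (-1.64) and Syp, the vesicle protein synaptophysin, 3847 and 1180.2 (-1.47). Grin1, the shared subunit of NMDA receptors, read 489 and 170 (-1.33). Nrgn (-1.31), Camk2a (-1.11) and Chn1, a Rac GTPase activator (-1.04), differed the same way. Chn1, however, lies in block 24 and was at -0.51 with the block median subtracted, and Camk2a was at -0.83 with the surrounding spots subtracted. Of the 13 synaptic vesicle genes 8 lay below 0, among them Vamp2, a vesicle SNARE protein (-0.83), Syngr1 (-0.80), Cplx1, which clamps release (-0.75) and Rab3a, a vesicle GTPase (-0.69), and 5 above it, up to Sv2a (0.16). Of the 12 excitatory genes 8 lay below 0, and of the 14 glutamate receptor and scaffold genes 7. Among the latter Shank3, a scaffold of the postsynaptic density, was at -0.79 (-1.04 with block medians subtracted) and Gria2, an AMPA receptor subunit, at 0.46. In the striatal list Ppp1r1b differed by -1.05 and Rgs9, a regulator of G protein signalling, by -1.09, whereas Drd1 differed by 1.13. With block medians subtracted Ppp1r1b was at -1.04, but Rgs9 at -0.69 and Drd1 at 0.87 were short of 2-fold. All 8 of these genes past 2-fold and brighter on the AtrxdE2 array had a negative Cy3 difference too, from -2.30 (Rgs9) to -0.80 (Chn1), and Drd1 had one of 0.86.

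The rest of the 14 were Col1a1, a fibrillar collagen, at 31.1 and 8.34 (-1.56), Nr1d1, a repressor of the circadian clock (-1.24), Rpl37 (-1.20), Abcb1a, an efflux pump of the blood-brain barrier (-1.15), Tyrobp, a microglial adaptor (-1.09) and Apoa2 (-1.01). Of these Rpl37 (-0.80), Tyrobp (-0.56) and Apoa2 (-0.76) were short of 2-fold with block medians subtracted. The 7 in the other direction were Ttr, Stxbp6 (55.3 and 126, 1.38), Lypd1 (330 and 704, 1.31), Drd1, Dsp (1.02), Pdk4 and Per2. Pdk4, a kinase that turns off pyruvate oxidation, differed by 1.15 and the clock gene Per2 (26.4 and 49.1) by 1.14. Pdk4 (0.92), Dsp (0.79) and Drd1 (0.87) were short of 2-fold in the same way. With the surrounding spots subtracted Lypd1 (0.67) and Per2 (0.78) were short of it too, while Ttr (2.40) and Stxbp6 (1.74) were not. The clock list held 1 gene in each direction, with a median of -0.01. Gfap, at -0.995, was just short of 2-fold and was at -1.05 with block medians subtracted.

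Of the sex-linked genes on the array Kdm5d, on the Y chromosome, read 80.3 and 38.7 in wild type (-0.85, and -1.07 with block medians subtracted). Ddx3x, on the X chromosome, read 970 and 795 (0.00). Among usual references Actb had 2 probes with a mean of 13948 and 9405 (-0.15, turning to 0.26 with block medians subtracted) and Gapdh read 222 and 302 (0.65). Penk differed by -0.88, and by -0.35 with the median of its block subtracted, and Sst by -0.91 and -0.38.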

How the data were processed

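The deposited scanner tables hold a median intensity per spot and channel, which, per the file headers, was merged from 3 scanner gains by least squares, with the local background and quality marks. The software is not given in the sources used here, and the labels' extraction step speaks of cells although the tissue is hippocampus. Amplified RNA was labelled with amino allyl chemistry, per the labels' protocols. No values from the authors' processed table were used.

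The trimmed mean of 2736 blank spots (5% left out at each end) was subtracted from each channel, and probes above it by 2 SD in both Cy5 channels were kept. Their log2 intensities were quantile normalized and subtracted, and the percentile rank was taken within each channel. The normalization step was run on simulated data with noise below the observed spread, changes in bright probes only and no effect of position. That run checks the calculation and not how the step performs on these arrays. Of 16446 symbols, 12501 are current in the RefSeq table of GRCm38.p6, 3883 matched through a synonym and 62 matched none. Probes of a gene were averaged on the log2 scale, and 22 of 170 genes with several probes had differences over 1 apart.

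With 1 channel per array no test or p-value was possible, and 2-fold was used as a fixed size. Named genes are the 20 of highest signal, the 15 of widest difference in each direction among genes above 10 SD in both Cy5 channels, the extremes of each list and a fixed set of markers. Members and lists were chosen with earlier results of these data known. Alternatives changed the background, normalization, threshold and position correction. Tools were R 4.3.3, limma 3.58.1, Python 3.11.15, numpy 2.4.6 and pandas 2.3.3.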

Additional observations from a re-analysis of the deposited data

Results flagged for a closer look

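Signal appeared in spots outside the comparisons. All 24 of the spots of negative control 3 were above the threshold in the wild-type channel of the AtrxdE2 array, with a median of 7.501 above the blank mean, and 0 of 24 were so on the other array, where the median was 0.775. Of the 1102 spots that carry no probe, 24.0% were above it in the wild-type channel of the first array and 48.9% in that of the second, against 6.03% and 6.62% of blank spots. None of the negative control spots, and 2 of the spots without a probe, passed 10 SD in a wild-type channel. Measured probes below 10 SD therefore lie in the range that these spots reach.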

How the results depend on the processing

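The probes measured in both wild-type channels numbered 19519, and 18923 with 3 SD, 19182 with an untrimmed blank mean and 18191 with a threshold from the spots without a probe. Against 391 probes past 2-fold higher on the AtrxdE2+TMPyP4 array, there were 213 with median centring, 19 with normexp and an offset of 50, 2383 with the local background subtracted, 147 above 10 SD, normalized over those probes alone, and 260 with the threshold from spots without a probe. Against 651 higher on the AtrxdE2 array, there were 1112, 86, 2695 and 376 under the first 4 of these. The SD of 0.511 moved to 0.267 with normexp, whose offset shrinks differences of dim probes, and to 1.18 with local background, which exceeded the spot in 22.9% of probes of the AtrxdE2+TMPyP4 array. Why the other counts moved was not tested. Of the 1042 probes past 2-fold either way, 863 were past it with median centring, 995 with loess, 537 with local background and 685 with block medians subtracted. None of the named genes that were past 2-fold and were recomputed changed sign, but Fos, at 0.28, turned to -1.30 with local background subtracted. List medians changed sign in 16 of 32 lists with local background, 10 with block medians and 9 with the surrounding spots subtracted. Of 32 list medians, 8 moved with local background by more than the SD within the list. Subtracting block medians or the surrounding spots, the threshold from spots without a probe and leaving out the patch were chosen after seeing the data. No paired analysis was possible because each array has 1 wild-type channel. The dimmest 10% of probes, with a median signal of 6.13 and 3.74, limit what can be read.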
